A study of Mus musculus with 6 samples.

Results

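The genes examined here encode the proteins of the cytosolic ribosome, and they were taken by a rule on gene symbols. They are the protein-coding genes of the RefSeq annotation of GRCm38.p6 whose symbol is Rpl or Rps followed by a digit, or Rpsa, Rplp0, Rplp1 or Rplp2, without Rps6k and -ps symbols. The rule gave 89 of 21887 nuclear protein-coding genes, 54 of the large subunit (Rpl) and 35 of the small subunit (Rps). Of these, 77 encode standard subunits of the cytosolic ribosome (46 large, 31 small), and 12 are paralogues or namesakes such as Rpl22l1, Rps27l and Rps19bp1, whose product is named for binding Rps19.

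The study mapped RNA bound by AGO2, the Argonaute protein that microRNAs (miRNAs) guide to their targets, in mouse embryonic stem cells of an established line. Every library carries the genotype Spy3-Ago2, in which AGO2 bears a tag that SpyCatcher3 on a resin captures, and the cells grew in medium with serum and LIF, untreated. The 6 libraries are 2 miRNA and 2 target libraries from the captured AGO2, and 2 input libraries of whole lysate, with no untagged line or other genotype among them. One deposited list of 3292 target peaks on mm10 (the assembly that RefSeq calls GRCm38) stands for the series, with no value per library. Genes and peaks are not replicates, so the comparisons below are counts and medians with no test, and replicate error cannot be given for any peak. Labels do not say whether replicates are separate cultures or how many clones make up the line. Values of the input libraries were not analysed here, so a difference in RNA abundance between genes cannot be told apart from a difference in AGO2 occupancy.

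A ribosome joins a large subunit, which forms peptide bonds, with a small subunit, which reads the mRNA, and each is a scaffold of ribosomal RNA covered by proteins. The mRNAs of ribosomal proteins are among the most abundant in dividing cells, are short, and begin with a 5' terminal oligopyrimidine (TOP) tract through which mTOR signalling controls their translation. Many of these genes also carry small nucleolar RNA (snoRNA) genes in their introns, whose products guide chemical modification of ribosomal RNA. miRNA target sites are best known in 3' untranslated regions.

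Peaks lay in most ribosomal protein genes. At least 1 peak midpoint fell within the span of 56 of 89 members (62.9%, exact Clopper-Pearson interval 52.0 to 72.9, which covers counting error only). Of the 21798 other nuclear protein-coding genes, 1761 had a peak, a background of 8.08%. Long spans offer more room for a peak, and the members are short, with a median span of 3183 nt against 17287 nt. Among the 7839 other genes with spans of at most 10000 nt, whose median span was 3714 nt, 256 had a peak, a background of 3.27%. At least 2 peaks were found in 35 members (39.3% of 89), against a background of 2.73%. The members held 119 peaks, 3.61% of the list, although they are 0.407% of nuclear protein-coding genes. Per kb of gene span this was 0.352 peaks, compared with 0.0117 in the other genes of at most 10000 nt and 0.00295 in all other genes.

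The large subunit had peaks in a larger share of its genes than the small subunit. They were present in 38 of 54 large subunit genes (70.4%, interval 56.4 to 82.0) and in 18 of 35 small subunit genes (51.4%, interval 34.0 to 68.6), and these intervals overlap. Restricted to the 77 standard subunits, the counts were 36 of 46 (78.3%) and 18 of 31 (58.1%). Large subunit genes held 88 peaks and small subunit genes 31, which is 0.431 and 0.232 peaks per kb of span. Among genes with a peak, at least 2 were found in 27 of 38 large (71.1%) and 8 of 18 small subunit genes (44.4%). The median spans of 3179 and 3269 nt were nearly alike. Whether the subunits differ was not tested.

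**Figure D1:**
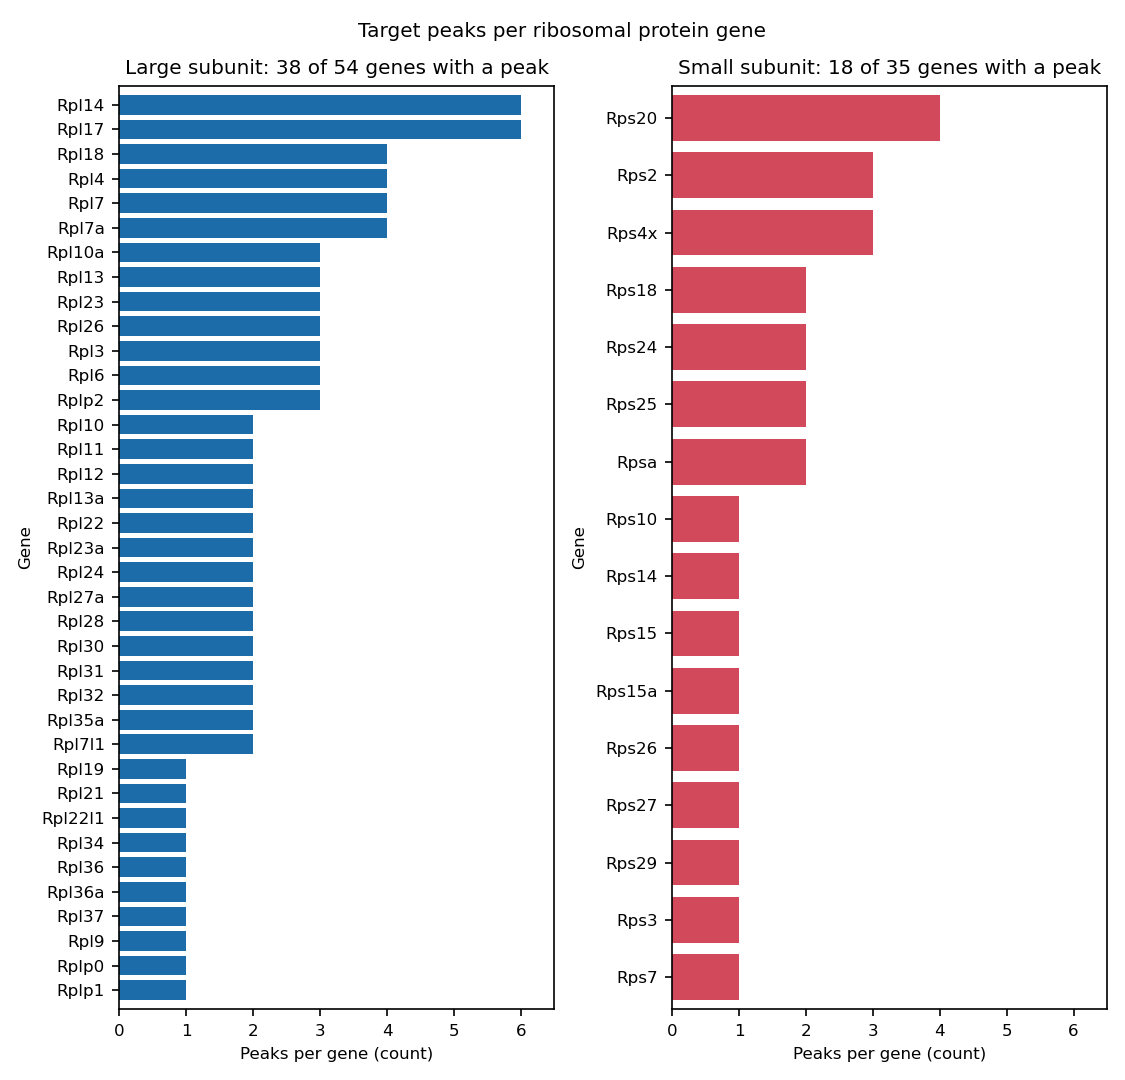
Bars give the number of target peaks (x axis, count) in the ribosomal protein genes with at least 1 peak that are reported by name (y axis), large subunit on the left and small subunit on the right. The highest bars are Rpl14 and Rpl17 with 6 peaks and, in the small subunit, Rps20 with 4. Over all members, 11 large and 10 small subunit genes have a single peak.

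Rpl14 and Rpl17, both genes of the large subunit, had 6 peaks each, the highest number among the members. Those of Rpl14, on chromosome 9 (120571517 to 120574653, plus strand), had midpoints 618, 1275, 2079, 2143, 2272 and 2902 nt from the upstream end of its 3137 nt span. They ran from 19.7% to 92.5% of the way along, and Rpl14 also had the highest density of all members, 1.91 peaks per kb. Those of Rpl17 lay between 2112 and 4240 nt of its 4404 nt span, from 48.0% of the way along to near its end. Rpl4, Rpl7, Rpl7a and Rpl18 had 4 peaks each. In Rpl18 all 4 lay from 76.2% onward of the span, 1279, 516, 92 and 18 nt from its end. In Rpl7 they lay in the middle, between 35.9% and 61.4% of the way along.

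The large subunit genes with 3 peaks were Rpl3, which encodes a protein near the peptidyl transferase centre, and Rpl6, Rpl10a, Rpl13, Rpl23, Rpl26 and Rplp2. Rpl26, whose product is known also as a regulator of p53 translation, had peaks at 28.2%, 58.0% and 98.5% of its span. Those of Rpl10a lay in its upstream part, with midpoints 131, 362 and 508 nt from the upstream end of a 2563 nt span. Rpl10, Rpl11, Rpl12, Rpl13a, Rpl22, Rpl23a, Rpl24, Rpl27a, Rpl28, Rpl30, Rpl31, Rpl32 and Rpl35a had 2 each. Genes with 1 peak included Rpl9, Rpl19, Rpl21, Rpl34, Rpl36, Rpl36a, Rpl37, Rplp0 and Rplp1. The proteins of the lateral stalk, which recruits translation factors to the ribosome, were thus all represented, Rplp0 and Rplp1 with 1 peak and Rplp2 with 3.

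In the small subunit, Rps20 led with 4 peaks, all in the upstream part of its span, from 10.2% to 28.8% of the way along. Rps2 and Rps4x, the X-linked member, had 3 each. Rpsa, which is also known as the laminin receptor precursor, had 2, as did Rps18, Rps24 and Rps25. Rps3, which lies at the mRNA entry channel, had 1, as did Rps7, Rps10, Rps14, Rps15, Rps15a, Rps26, Rps27 and Rps29. The single peak of Rps10 was the widest among the members at 152 nt, and that of Rps26 the narrowest at 23 nt.

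Among the standard subunits, 23 had no listed peak. In the large subunit these were Rpl5, Rpl8, Rpl15, Rpl27, Rpl29, Rpl35, Rpl37a, Rpl38, Rpl39 and Rpl41. Rpl5 and Rpl11 form the 5S ribonucleoprotein, which binds MDM2 when ribosome assembly is disturbed, and of this pair Rpl11 had 2 peaks and Rpl5 had 0. Rpl38, known from mouse mutants with axial skeletal defects, had 0. In the small subunit the genes without a peak included Rps3a1, Rps6, Rps9, Rps12, Rps13, Rps16, Rps19, Rps21, Rps23, Rps27a and Rps28. Among them, Rps6 encodes the substrate of S6 kinase, and Rps19 was the gene first linked to Diamond-Blackfan anaemia. The median span was 2705 nt over the 33 members without a peak and 3620 nt over the 56 with one.

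Of the 12 paralogues and namesakes 2 had a peak, Rpl7l1 with 2 peaks and Rpl22l1 with 1 (16.7%, interval 2.1 to 48.4). This was below the 70.1% of the standard subunits, and the interval holds the background of 8.08%. Rpl3l, Rpl10l, Rpl36al, Rpl39l and Rps27l had 0, while their counterparts Rpl3, Rpl10, Rpl36a and Rps27 had 3, 2, 1 and 1, and Rpl39 had 0. The remaining genes without a peak in this group were Rpl32l, Rpl37rt, Rps19bp1, Rps23rg1 and Rps27rt. Members of such pairs are similar in sequence, and ribosomal protein genes have many processed pseudogenes. These counts may therefore depend on how reads matching several copies were placed, which no source used here states. That dependence was not tested, and the RNA abundance of the paralogues was not examined. Of 324 annotated pseudogenes with an Rpl or Rps symbol, 1 held a peak, Rps4l with 1 peak.

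Peaks in ribosomal protein genes were spread along the gene and were not gathered at its downstream end. Position is the share of the gene span that lies upstream of the peak midpoint, taking the peak's own strand as the direction of reading. The median was 54.4% (binomial interval of the median 43.4 to 61.6) over 119 peaks. It was 83.8% over the other nuclear protein-coding genes, whose 3015 peaks gave 3098 placements because genes overlap. The median was 83.9% in the other genes with spans of at most 10000 nt, so peaks of the members lay further upstream than those of the short genes as well. The spans were not matched, since among genes with a peak the median span was 3620 nt in the members and 5711.5 nt in those short genes. The last 10% of the span held 15 of 119 peaks (12.6%), against 42.1% in all other genes and 36.2% in the short ones. The upstream part of the span up to its midpoint held 56 peaks and the rest 63.

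**Figure D2:**
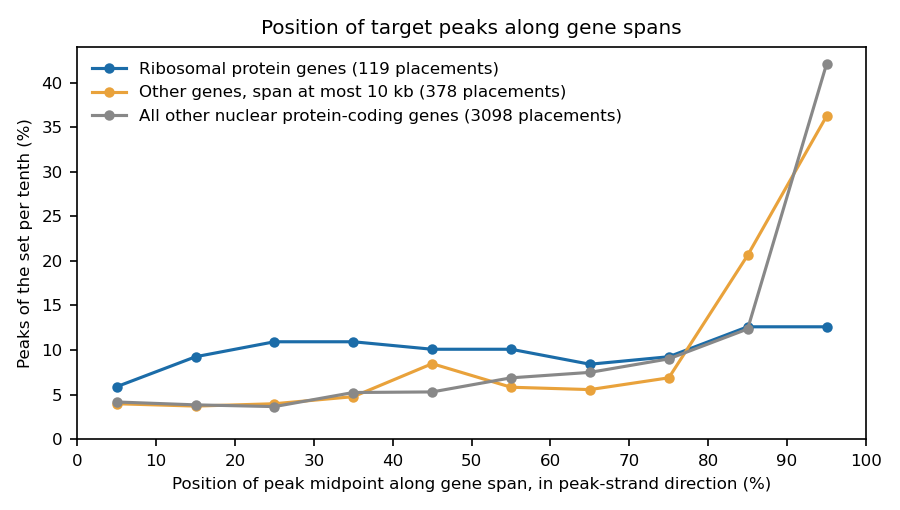
Lines give the share of peaks (y axis, %) in each 10% of the gene span (x axis, % of the span, read along the peak's strand) for ribosomal protein genes, other genes with spans of at most 10 kb and all other nuclear protein-coding genes; a peak in overlapping genes is placed in each. The line of the ribosomal protein genes stays between 5.88% and 12.6%, while the others climb to 36.2% and 42.1% in the last 10%.

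Measured in nucleotides, the median distance from the peak to the downstream end was 1497 nt in the members, 744 nt in the other short genes and 4469 nt in all other genes, whose spans are longer. A peak within 500 nt of that end was found in 16 of the 56 members with peaks (28.6%) and in 115 of the 256 other short genes with peaks (44.9%), but in 20.8% of all other genes with peaks. In nucleotides the members thus lay further from the end than the short genes and nearer to it than all other genes. Peaks close to the end were found in Rpl18 (18 nt), Rpl26 (44 nt), Rpl13 (53 nt), Rps27 (57 nt) and Rps29 (68 nt). The spread was seen in both subunits, with a median position of 54.5% in the large and 45.5% in the small subunit. It was seen also in the 21 genes with a single peak, at 49.5%. Spans follow the longest annotated extent of a gene and include introns. Exon boundaries were not used here, and positions along the mature mRNA may differ.

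Every member peak with a known gene strand lay on the strand of its gene, 86 of 86 in 41 genes, against 97.1% of placements in the other genes. No member peak lay also in another protein-coding gene.

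**Figure D3:**
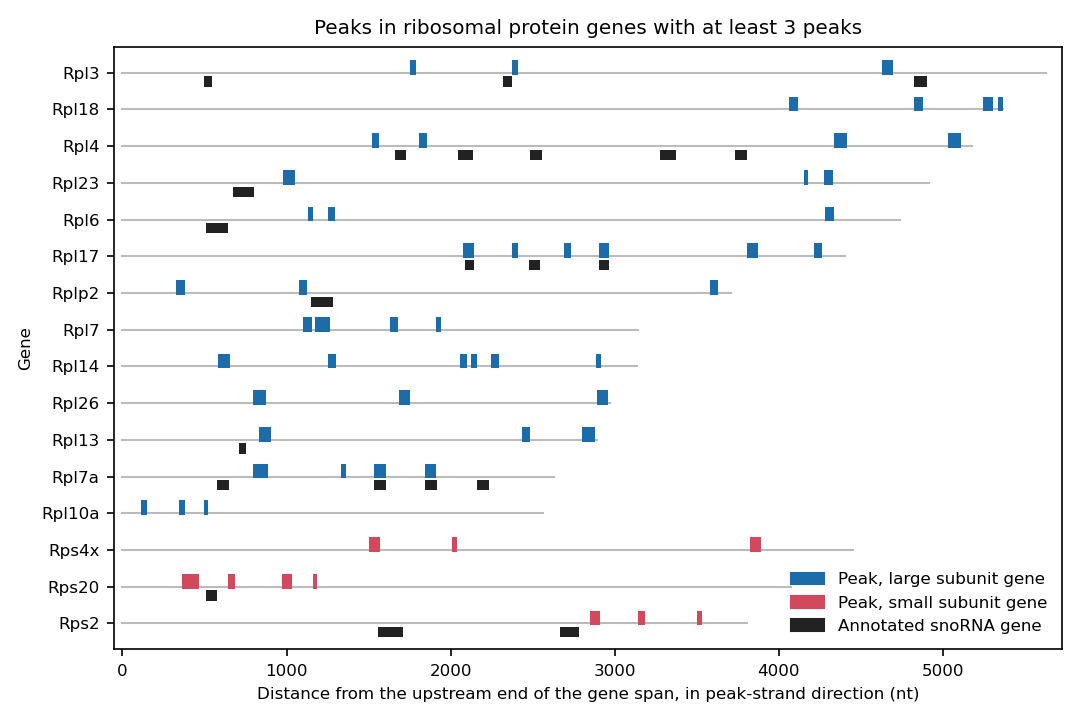
Each row is a ribosomal protein gene with at least 3 peaks that is reported by name, drawn as a grey line of the length of its span (x axis, nt from the upstream end, read along the peak's strand), with peaks in blue (large subunit) or red (small subunit) and annotated snoRNA genes in black. Peaks are spread over the spans of Rpl14 and Rpl26, lie in the upstream part of Rpl10a and Rps20, and coincide with snoRNA genes in Rpl17 and Rpl7a.

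Peaks in ribosomal protein genes were about as wide as others but had few wide ones. Their median width was 57 nt (interval 50 to 63, quartiles 39 and 70.5), and that of the other genes was 59 nt (quartiles 46 and 86). Widths of at least 100 nt were recorded for 4 of 119 member peaks (3.36%), against 17.9% elsewhere and 18.0% in the other short genes. The 4 were in Rps10 (152 nt), Rps25 (128 nt), Rpl9 (116 nt) and Rps20 (102 nt), 3 of them in the small subunit. Peaks narrower than 50 nt made up 40.3% of member peaks and 33.1% of the others. The median was 53 nt in the large and 62 nt in the small subunit, with intervals of 47 to 62 and 43 to 72 that overlap.

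Some of the member peaks coincided with a snoRNA gene inside the host gene. The spans of 30 members enclosed 59 annotated snoRNA genes, and 11 of these, in 8 large subunit genes, shared at least 1 nt with a peak (18.6%). For 402 snoRNA genes inside other nuclear protein-coding genes the count was 12, a background of 2.99%. Peaks were also denser throughout the members, at 0.352 per kb of span (0.543 in those with an enclosed snoRNA gene) against 0.00295 in the other genes. The shares are not adjusted for that density, so they do not show a closer tie of peaks to snoRNA genes in the members. With at least 90% of the peak inside the snoRNA gene, the counts were 6 of 59 (10.2%) and 11 of 402 (2.74%). No snoRNA gene inside a small subunit gene shared a base with a peak. The 11 snoRNA genes comprised 5 of the C/D box class by name (Snord), 1 of the H/ACA box class (Snora) and 5 without a class in their symbol. The compared sets differ in make-up, since 25 of the 59 but 349 of the 402 have no class in their symbol. By class, peaks were shared by 5 of 22 Snord genes in members and 3 of 36 elsewhere. For Snora genes it was 1 of 12 and 0 of 17, and for those without a class 5 of 25 and 9 of 349. C/D box snoRNAs guide 2'-O-methylation of ribosomal RNA and H/ACA box snoRNAs guide pseudouridylation.

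The match was close in most pairs, since in 9 of 11 the peak covered at least 80% of the snoRNA gene. In Rpl7a, on chromosome 2, the peak from 26912219 to 26912288 lay within LOC115489587 (26912218 to 26912291), and the peak from 26912531 to 26912596 lay within LOC115489586 (26912530 to 26912600). In Rpl13a, on chromosome 7, the peak from 45127386 to 45127462 left out 3 nt at the lower and 1 nt at the upper end of Snord32a (45127383 to 45127463). In Rpl21, on chromosome 5, the peak from 146834836 to 146834901 covered 93.0% of LOC115490268. Snord42a and Snord42b in Rpl23a and Snord72 in Rpl37 were covered to 93.3%, 98.2% and 100%, with the peak running past 1 end by 16, 10 and 12 nt. Rpl17 had a peak on Snord58b and one on Gm26202. In Rpl10 the peak of 62 nt lay inside Snora70, which is 129 nt long, and in Rpl3 peak and snoRNA gene shared 1 nt.

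**Figure D4:**
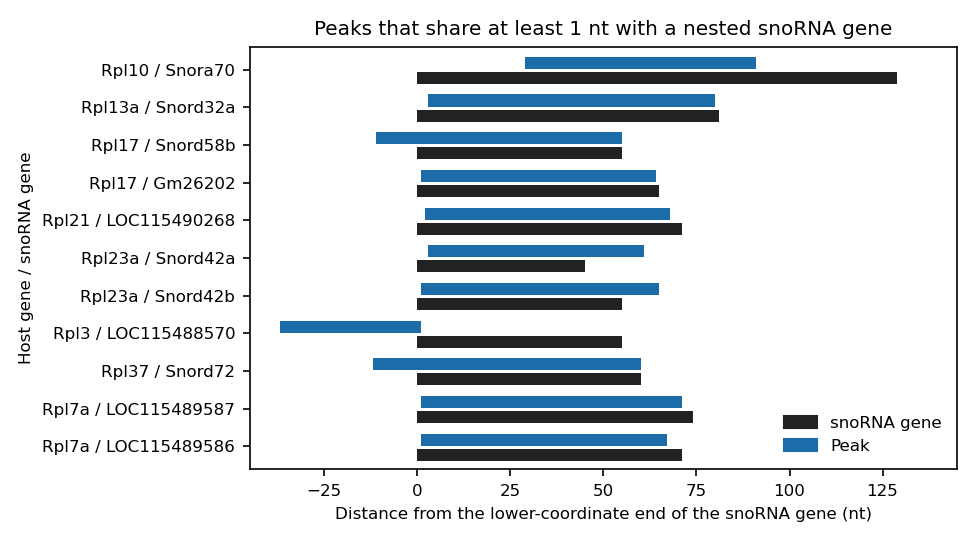
For each pair of a host gene and an enclosed snoRNA gene that shares at least 1 nt with a peak (y axis), the black bar is the snoRNA gene and the blue bar the peak (x axis, nt from the lower-coordinate end of the snoRNA gene). In 5 of the 11 pairs both ends of the peak lie within 5 nt of the ends of the snoRNA gene; the exceptions at the extremes are Rpl10, where the peak covers 48.1% of the snoRNA gene, and Rpl3, where they share 1 nt.

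snoRNA peaks made up a minor part of the peaks in these genes, though peaks on enclosed noncoding genes were a larger part than elsewhere. The midpoint lay in an enclosed noncoding gene for 10 member peaks (8.40%), against 42 peaks (1.39%) in the other genes. Noncoding genes of any kind are counted here. The snoRNA genes that held a peak midpoint numbered 10 in the members and 12 in the other genes. How much of the span enclosed noncoding genes fill in each set was not compared. Without the 10 member peaks on such genes, 109 peaks remained in 53 members, and the median position was 53.0%. Rpl21 and Rpl37, whose single peak was on a snoRNA gene, and Rpl23a, with both peaks on one, then had 0. Peaks were present in 23 of the 30 members with an enclosed snoRNA gene (76.7%) and in 33 of the 59 without (55.9%). Those 3 genes are all hosts, and leaving out the peaks on enclosed noncoding genes gave 20 of 30 (66.7%). All 12 paralogues and namesakes are in the group without, in which 31 of the 47 standard subunits had a peak (66.0%). Among standard subunits, and apart from those peaks, the shares of hosts and other genes with at least 1 peak were therefore close. Counts of several peaks were less alike. Over all members and all peaks, at least 2 were found in 19 of the 30 hosts (63.3%) and 16 of the 59 others (27.1%). All 12 paralogues and namesakes, 1 of them with at least 2 peaks, are among the 59. The hosts Rpl10, Rpl13a and Rpl23a reach 2 peaks only with a peak on a snoRNA gene. Leaving out either would narrow the gap, which was not recomputed.

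Both peaks that a promoter window of the RefSeq table reaches for at least 30 nt contained a run of pyrimidines, and neither run lay at an annotated start. They are printed because these are the member peaks whose bases could be read, 5' to 3' on the plus strand of GRCm38.p6, with the longest unbroken run of C and T in capitals. The Rpl10a peak (28328584 to 28328619) is shown over chr17:28328584-28328613 and begins 19 nt downstream of the nearest annotated start. The Rps24 peak (24490721 to 24490759) is shown over chr14:24490725-24490754 and spans the annotated start at 24490753, with another at 24490678.
Rpl10a: TTCTTTCCggtttccgcggcagccgcagcc
Rps24: CCTCCTCTCCagctccggcgccgtagccat
The runs are 8 and 10 nt long. That of Rpl10a lies 19 to 26 nt after the nearest start, and that of Rps24 lies 28 to 19 nt before one start and 47 to 56 nt after the other. TOP tracts open the mRNA at its first base. Runs of at least 8 C or T are common in the whole windows, from 250 nt before to 50 nt after each start, on the transcribed strand. They occurred there in 62 of 69 ribosomal protein genes with a window (89.9%) and in 13148 of 17423 other genes (75.5%). Separately, the 30 nt from 10 nt before to 20 nt after each start were searched, a stretch that holds neither printed run. A run occurred there in 26 of the 69 ribosomal protein genes (37.7%) and in 2260 of the other genes (13.0%). Among the members it occurred in 17 of 41 with a peak (41.5%) and 9 of 28 without (32.1%). These groups differ in make-up, since 10 of the 12 paralogues and namesakes are among the 28 and 2 among the 41. A run of these letters is a description, not a mapped TOP tract, and annotated starts can lie some bases from those used in these cells.

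The numbers that the peaks bear run to 30438 and rise with position along each strand, so that the list of 3292 holds 10.8% of the numbers. Between the first and last listed peak of a gene, how the members compared with other genes turned on the measure. The 35 members with at least 2 peaks on a strand spanned 165 numbers, of which 67 were skipped (40.6%). In 592 such cases in other genes, 4209 of 6134 were skipped (68.6%). The members varied, with 15 numbers skipped in Rpl4, 6 in Rpl17 and 5 in Rpl3, and 0 in 14 of the 35, among them Rpl10a, Rpl26 and Rps2. As a share of the numbers spanned, skipped ones were thus lower in the members, whereas per kb between those peaks they were higher, 1.23 against 0.332 in the other genes. No source used here states what the skipped numbers stood for.

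Ribosomal protein genes enclose few miRNA genes, which gives the only replicated values on these loci. The miRNA libraries held 12562727 and 22908172 counts over 1978 mature miRNAs. The hairpins reported here lie in Rps21 (miR-3091), Rpl13a (miR-5121) and Rpl13 (miR-7079), with 5 mature miRNAs. The mature sequences of miR-3091, in Rps21 on chromosome 2 (plus strand, 180257547 to 180257567 for the 5p arm and 180257580 to 180257601 for the 3p arm), are from RefSeq (GRCm38.p6), with the seed (bases 2 to 8) in capitals. They are shown because this hairpin has the most counts of the group.
miR-3091-5p: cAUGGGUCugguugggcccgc
miR-3091-3p: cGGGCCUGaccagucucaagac
miR-3091-5p had 558 counts in replicate 1 (44.4 CPM, counts per 1000000 counts of the library, Wilson interval 40.9 to 48.3) and 1125 in replicate 2 (49.1 CPM, 46.3 to 52.1), a mean of 46.8 ± 3.3 CPM (SD, n = 2). It ranked 305th and 297th by count. The opposite arm miR-3091-3p had 1 and 2 counts, so the 5p arm took nearly all counts in both libraries. miR-7079-3p had 7 and 1, miR-5121 had 2 and 8, and miR-7079-5p had 0 in both, which allows up to 0.239 and 0.131 CPM at a floor of 3 counts. Rps21, the host of miR-3091, had no target peak.

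Other genes of translation were listed for comparison. Of the ribosomal proteins with another name, Fau had 1 peak and Rack1 had 0. Peaks were found in 16 of 35 initiation factor genes (45.7%), led by Eif4a1, the helicase of the cap-binding complex, and Eif4g2 with 5 each, Eif4b with 4, and Eif3a and Eif3c with 2. Of 13 elongation and termination factor genes 5 had a peak (38.5%), with 5 peaks in Eef1a1 and 3 in Eef1g. Among mTOR and TOP mRNA control genes it was 7 of 20 (35.0%), with 5 peaks in Pabpc1, the poly(A)-binding protein, and 3 each in Larp1, which binds TOP mRNAs, and Larp4. Ribosome biogenesis genes had peaks in 15 of 56 (26.8%), with 5 in Mybbp1a, 4 in Nop58, 3 in Npm1, and 2 each in Dhx9 and Mdn1. Genes for the separate ribosome of mitochondria, whose subunits are also nuclear-encoded, had peaks in 6 of 78 (7.69%), and Mrps18b with 3 was the one with more than 1 peak. Against the background of 8.08% over genes of all spans, the mitochondrial ribosomal proteins lay close to the other genes, and the cytosolic ones and the translation factors above them. The median span of the mitochondrial ribosomal protein genes was 7690.5 nt. Their 7.69% lay above the 3.27% of other genes with spans of at most 10000 nt, a set that leaves out genes as long as the longer ones among them. The median position was 45.7% over the 31 peaks of initiation factors and 50.7% over the 8 of mitochondrial ribosomal proteins, both near the middle of the span like that of the members. It was 67.3% for ribosome biogenesis genes, 76.7% for elongation and termination factors and 93.2% over the 15 peaks of the mTOR and TOP control genes.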

How the data were processed

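Target and input libraries gave no values per library here. The authors deposited 1 peak list (positions, strand and a score that was 0 throughout and ranked nothing) and, from both miRNA libraries, a table of raw counts by mature miRNA. CPM was computed from these. The submitters' processing notes name the mm10 build, the aligners Bowtie2 2.4.2 and STAR 2.5.2a, and cutadapt 2.10, UMI-tools, deepTools 3.1.3 and DESeq2 1.36.0, with no step given for any; peak caller, threshold, pooling, use of input and collapsing by molecular identifier are stated in no source used here, and each could change every count. A further row naming no miRNA held 0 counts and was left out.

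Peaks were assigned by midpoint to RefSeq gene spans (coordinates from 1), on either strand. Gene strand came from the promoter table (windows from 250 nt before to 50 nt after each start). No test was planned or made. The members and lists were chosen with earlier results of these data known; the snoRNA, miRNA, pyrimidine and peak number comparisons were added after the peaks were seen. Members with a peak are named, except a few that are counted in the totals and not reported here by name, as are, of each other list, up to 5 genes with at least 2 peaks; other listed genes were named where a list had fewer, and some members without a peak for their known roles. On simulated data 500 of 500 peaks returned to their gene. Each was placed inside the span of its gene, and assignments to other overlapping genes were set aside. The result therefore checks the handling of coordinates and cannot measure wrong assignment. Computation used pandas 2.3.3, scipy 1.17.1, numpy 2.4.6 and matplotlib 3.10.9 under Python 3.11.15.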

Additional observations from a re-analysis of the deposited data

How the results depend on the processing

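Of 65 values recomputed under an alternative, 61 stayed within 1.5 times a count or within the interval or SD of a value, and 4 moved. Some of the 61 could not have moved, so this count does not measure robustness. Each miRNA library of a pair always lies within the SD of their mean. No member peak lay in another protein-coding gene or off a known gene strand, so the alternatives of exactly 1 gene and of gene strand left member values unchanged. With peaks of at least 50 nt only, 71 peaks in 46 ribosomal protein genes were left and their median width was 66 nt, as this setting removes narrow peaks. With other genes limited to spans of at most 10000 nt, 256 had a peak, since fewer genes are tested. Requiring 90% of a peak inside the snoRNA gene, an alternative chosen after seeing the data, left 6 of 11 snoRNA genes. The remaining alternatives were 1 nt of overlap, the whole peak inside the span, peaks in exactly 1 gene, joining within 50 nt, leaving out peaks on enclosed noncoding genes, standard subunits only, gene strand only, the downstream peak end, and, for snoRNA genes, the peak midpoint. The median position ran from 49.6% to 55.0%. Leaving out a miRNA library gave 44.4 or 49.1 CPM for miR-3091-5p. Peaks could not be recomputed by replicate. No paired analysis was possible because no values per library exist here for the target and input groups. The length of the peak list limits every count of genes without a peak.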
